A study of Mus musculus with 6 samples.

Results

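The genes described here encode enzymes that use alpha-ketoglutarate to oxidise DNA, RNA or protein. A list of 42 mouse genes was chosen by name: TET DNA dioxygenases, histone demethylases with a Jumonji C (JmjC) domain, other JmjC proteins, the AlkB family, the prolyl hydroxylases of hypoxia-inducible factor (HIF), and the prolyl, lysyl and aspartyl hydroxylases of the secretory pathway. All 42 were found among the 25220 genes of the deposited table. The rule uses gene names and no measured value, but the list was chosen with earlier results of these data known.

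Poly(A) RNA was sequenced from primary myoblasts, the muscle precursors grown out of mouse hindlimb muscle, cultured in Ham's F10 medium supplemented with horse serum and bFGF, a fibroblast growth factor. The 3 Psat1 cKO libraries came from cells of genotype Pax7 CRE+/-;Psat1fl/fl. The 3 Ctrl libraries came from cells of genotype Pax7 +/+; Psat1fl/fl. Floxed Psat1 was thus shared by both groups, while Cre at the Pax7 locus was in Psat1 cKO only, so that Cre and the loss of Psat1 cannot be told apart. Whether this Cre was inducible or induced is not said in the labels. They also do not say whether the libraries of a group came from separate animals, so the p-values here cover the spread between libraries, which may be technical in part.

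Enzymes of this class bind iron and split molecular oxygen. They couple the hydroxylation of a substrate to the conversion of alpha-ketoglutarate (2-oxoglutarate) to carbon dioxide and succinate, and many are inhibited by succinate and fumarate. PSAT1, the aminotransferase of serine synthesis, itself releases alpha-ketoglutarate from glutamate. In muscle precursors, several of the demethylases are known to act on chromatin during the choice between proliferation and differentiation. The data give the transcripts of these enzymes and not their activity, their substrates or the level of alpha-ketoglutarate.

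The promoters of 3 hydroxylases are shown, because Egln3 is a well-known transcriptional target of HIF as well as a regulator of it, and because Egln3, P4ha2 and Plod3 were among 7 of the tested members whose highest value lay in Psat1 cKO 2 (with Kdm5b, Alkbh2, P4ha1 and P4ha3). Of all genes tested, 14% had their highest value in Psat1 cKO 2. This choice was made after the values were seen. Each sequence holds the 250 bases before the gene's start, 5′ to 3′ on the gene's strand, from RefSeq for GRCm38.p6. Capitals mark ACGTG, 1 form of the core of the element that HIF binds, searched on both strands (CACGT on the other strand). The form GCGTG was not searched or marked. The same letters lie within CACGTG, which basic helix-loop-helix factors bind.
Egln3, chr12:54203875-54204124, minus strand: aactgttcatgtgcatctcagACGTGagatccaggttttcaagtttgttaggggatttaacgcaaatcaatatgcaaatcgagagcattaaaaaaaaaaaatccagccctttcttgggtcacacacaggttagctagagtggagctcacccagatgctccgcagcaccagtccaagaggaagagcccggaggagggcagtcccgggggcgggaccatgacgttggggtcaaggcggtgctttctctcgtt
P4ha2, chr11:54100674-54100923, plus strand: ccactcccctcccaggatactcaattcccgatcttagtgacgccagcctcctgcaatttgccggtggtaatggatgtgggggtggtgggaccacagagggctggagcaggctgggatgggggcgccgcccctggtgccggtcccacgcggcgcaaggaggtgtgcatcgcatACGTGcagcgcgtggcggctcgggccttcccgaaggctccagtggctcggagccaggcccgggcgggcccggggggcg
Plod3, chr5:136986769-136987018, plus strand: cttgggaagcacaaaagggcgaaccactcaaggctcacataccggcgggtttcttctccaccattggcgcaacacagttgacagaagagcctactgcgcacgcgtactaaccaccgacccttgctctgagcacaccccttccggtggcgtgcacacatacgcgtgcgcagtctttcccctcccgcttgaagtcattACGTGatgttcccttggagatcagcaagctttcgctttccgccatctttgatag
Each of these windows holds 1 match, whose first base lies 229 bases before the start of Egln3, 78 before that of P4ha2 and 54 before that of Plod3. A promoter was found for 33 of the tested members, and 15 of them (45.5%) held a match in at least 1 promoter, against 25.5% of the 9681 tested genes with a promoter. A match is a description of the letters in this window only. Of the other members highest in Psat1 cKO 2, whose promoters are not printed, Kdm5b and P4ha1 held a match and Alkbh2 and P4ha3 held none. The 3 printed windows, each with a match, thus do not stand for all 7.

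Depth was estimated from the smallest steps between the deposited expression values, which are reads per kilobase and scaled to library size (RPKM). It came to 35100000, 28900000 and 19500000 reads in Psat1 cKO 1, 2 and 3, and 33500000, 39300000 and 43100000 reads in Ctrl 1, 2 and 3. Psat1 was measured at 63.5, 74.7 and 71.8 RPKM in Psat1 cKO and at 91.8, 93.4 and 100.2 RPKM in Ctrl (log2 fold change -0.44, limma adjusted p = 0.0225), so most of the signal over the whole gene was still present. RPKM for the whole gene does not separate transcripts with and without the floxed part. Xist was expressed in Psat1 cKO 1, Psat1 cKO 2 and Ctrl 1, and Y-linked genes in Psat1 cKO 3, Ctrl 2 and Ctrl 3, which left the groups unbalanced. The libraries of each group thus did not all come from the same animal. Whether those alike in these genes did is not known. Psat1 cKO 3, the shallowest library, was the lowest of the 6 for 31.1% of all genes tested. The myoblast markers Myod1 and Des were abundant in every library, at 606 and 340.4 RPKM on average in Psat1 cKO and 687 and 377 RPKM in Ctrl. In bulk samples, fewer cells of a type and less RNA per cell cannot be told apart.

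None of the 40 members that could be tested passed the threshold in either direction. The 12251 genes whose mean reached 0.5 RPKM were compared with limma on log2(RPKM + 0.5), and a gene was called at a Benjamini-Hochberg adjusted p below 0.05. Of all genes tested, 1.8% were called higher and 0.49% lower in Psat1 cKO, while of the members 0 were higher and 0 lower. At an unadjusted p under 0.05, 3 members were higher (Alkbh2, P4ha3 and Plod2) and 1 was lower (Alkbh3), which is 4 of 40, beside 14.4% of all genes tested in either direction. There was no overlap between the groups for 2 members that were higher (Alkbh2 and P4ha3) and 5 that were lower in Psat1 cKO (Kdm3a, Phf2, Jmjd4, Alkbh3 and Alkbh5), beside 20.5% of all genes tested. Member log2 fold changes ran between -0.19 (Alkbh3) and 0.32 (Alkbh2), with 14 above 0 and 26 below, and a median of -0.04 where that of all genes tested was -0.01. Of the members, 0 had q under 0.05 and 3 had p under 0.05 in the authors' deposited table, where 9.74% of the genes with a p did.

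The intervals limit how large a difference these libraries could hide. For 37 of the 40 tested members the 95% interval of the log2 fold change lay within 0.5 of 0, that is within 1.41-fold, and this held for 85.5% of all genes tested. For 20 members it lay within 0.25, or 1.19-fold. These folds are of RPKM + 0.5, so the bounds on RPKM itself are wider for members of low level. The exceptions to the bound of 0.5 on the log2 scale were Kdm6a, Alkbh2 and P4ha3. The interval reached a median of 0.18 to either side of the estimate for the members and of 0.17 for all genes tested. Mean RPKM in Psat1 cKO was within 20% of the Ctrl mean for 40 of the 42 members, and the other 2 were Alkbh2 at 127% and P4ha3 at 134% of it.

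**Figure D1:**
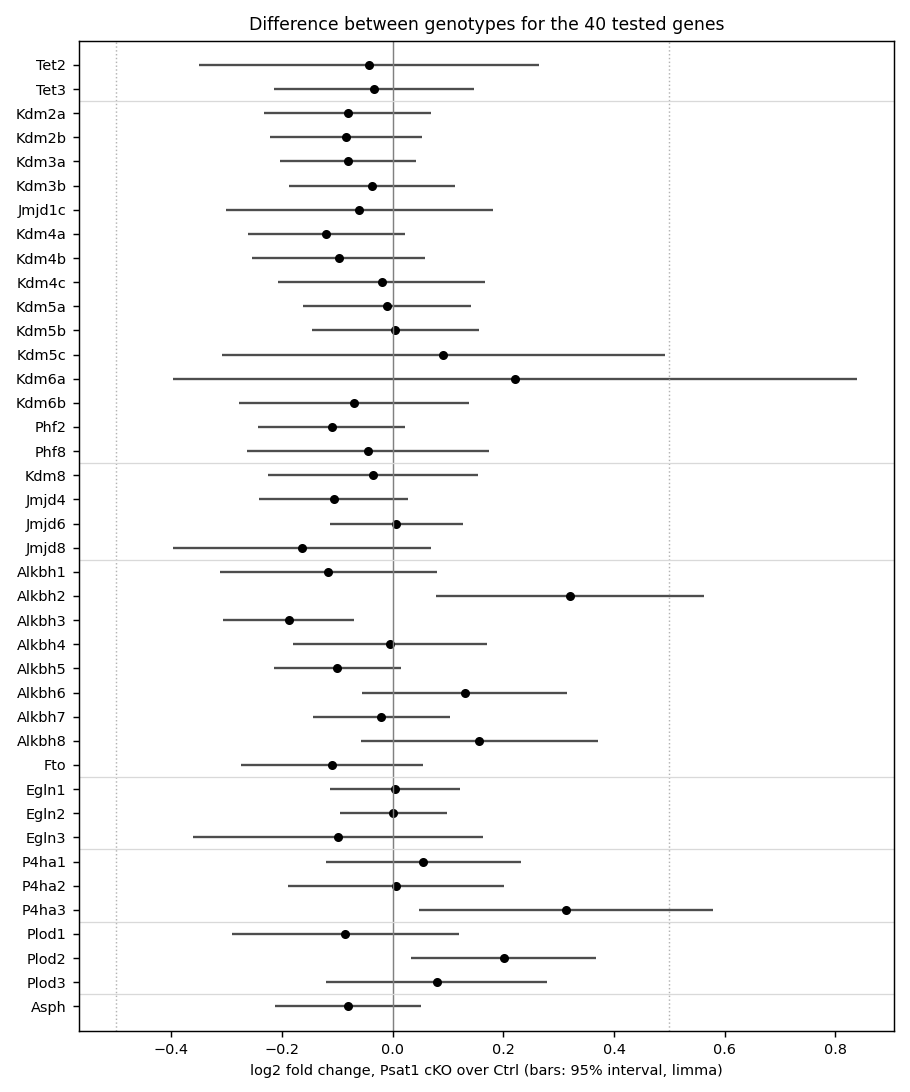
Log2 fold changes (Psat1 cKO over Ctrl, on log2 of RPKM + 0.5) of the 40 tested members, grouped by family, with points for the estimate and bars for the 95% interval. Most intervals cover 0 and lie within 0.5 of it, and those of Alkbh2, Alkbh3, P4ha3 and Plod2 lie to one side of 0 although none of these genes passed the adjusted threshold.

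As levels, the members formed a broad ladder in these myoblasts. Since RPKM is per length, levels of different genes can be set side by side. The highest in Ctrl was Egln3, one of the enzymes that hydroxylate HIF, at 41.3 ± 2.19 RPKM (SD, n = 3). It was followed by Egln2 at 29.0 ± 0.340, the demethylase gene Kdm4a at 27.7 ± 1.19, Jmjd6 at 26.9 ± 1.05 and Fto at 23.4 ± 1.16 RPKM. Over the Ctrl libraries the values of Kdm4a overlapped those of Egln2 and of Jmjd6, while Egln3 lay above all of them and Fto below. In all, 22 of the 42 members exceeded 10 RPKM in Ctrl and 8 exceeded 20 RPKM, and their median was 10.3 RPKM where that of all genes tested was 9.50 RPKM. At the low end were P4ha3 at 1.39 ± 0.102, Tet1 at 0.202 ± 0.00852 and Kdm4d at 0.0577 ± 0.0369 RPKM. Tet1 and Kdm4d fell short of the filter and were not tested.

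**Figure D2:**
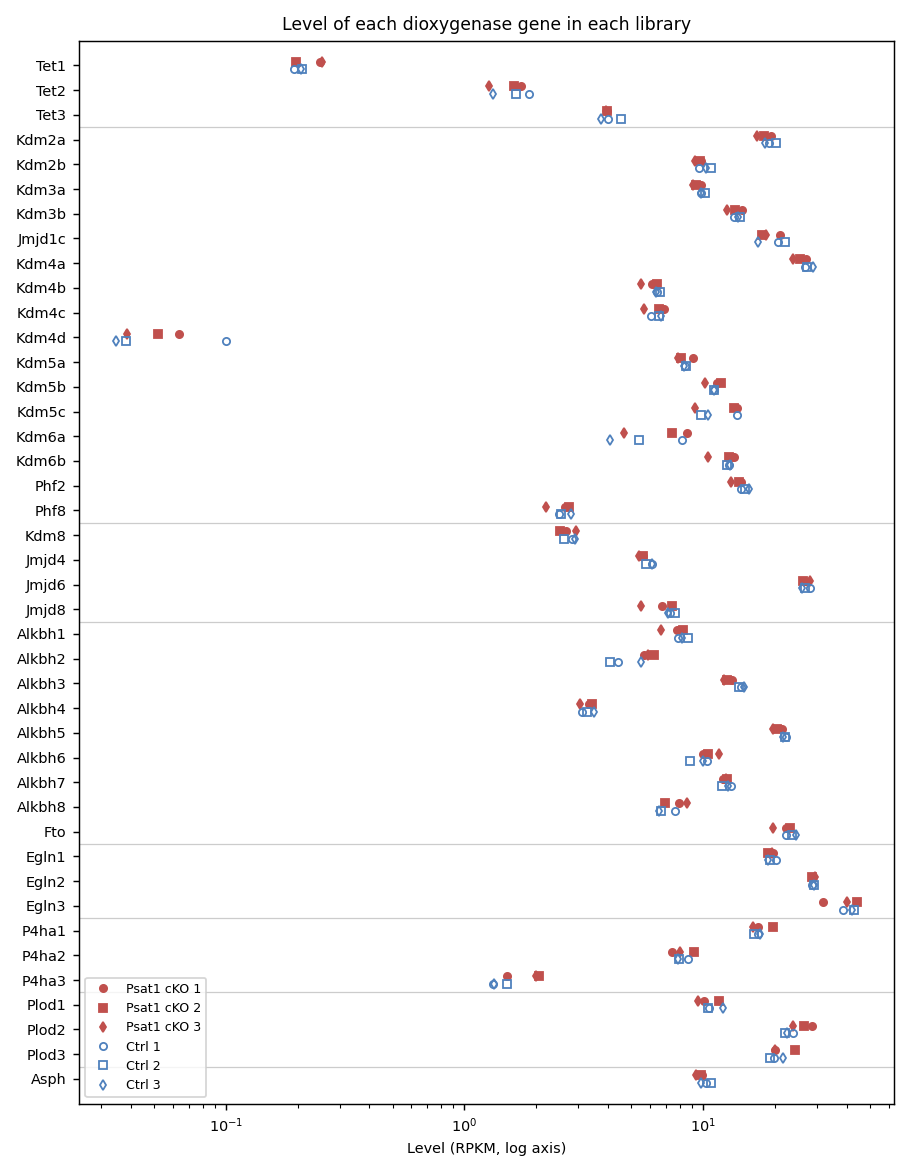
RPKM of the 42 members in each library on a log10 axis, grouped by family, with filled Psat1 cKO points drawn just above the open Ctrl points and a marker shape for each replicate number. Levels run from below 0.1 RPKM for Kdm4d to above 40 RPKM for Egln3, and for most members the points of both groups lie close together.

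TET enzymes oxidise methylated cytosine in DNA, the first step of active demethylation. Tet3 was the most abundant, at 3.98, 3.98 and 3.91 RPKM in Psat1 cKO and 3.98, 4.51 and 3.72 RPKM in Ctrl. Tet2 stood at 1.73, 1.62 and 1.27 RPKM in Psat1 cKO and 1.86, 1.64 and 1.32 RPKM in Ctrl. The groups overlapped for both genes. Tet1 read 0.249, 0.198 and 0.253 RPKM in Psat1 cKO and 0.193, 0.208 and 0.206 RPKM in Ctrl, where 3 reads in a transcript of 1 kb would give between 0.0697 and 0.154 RPKM depending on the library. The log2 fold changes were -0.03 for Tet3 (95% interval -0.22 to 0.15) and -0.04 for Tet2 (-0.35 to 0.26), with limma adjusted p of 0.889 and 0.918. Summed over the 3 genes, the level was 5.73 ± 0.272 RPKM in Psat1 cKO and 5.88 ± 0.576 RPKM in Ctrl (SD, n = 3 each).

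JmjC histone demethylases remove methyl groups from histone lysines. Of the 16 measured members 15 were tested, 0 were called by limma at the adjusted threshold and 0 had an unadjusted p under 0.05, while 3 log2 fold changes lay above 0 and 12 below, with a median of -0.06. Kdm4a, which acts on marks of silent chromatin, had 27.1, 25.5 and 23.8 RPKM in Psat1 cKO and 26.7, 27.3 and 29.0 RPKM in Ctrl. Phf2, a demethylase with a plant homeodomain finger, had 14.5, 14.2 and 13.1 RPKM in Psat1 cKO and 14.5, 15.02 and 15.7 RPKM in Ctrl. Kdm3a, which removes a repressive mark and is itself induced by hypoxia, had 9.79, 9.32 and 9.09 RPKM in Psat1 cKO and 9.84, 10.2 and 9.83 RPKM in Ctrl. For Phf2 and Kdm3a the highest Psat1 cKO value lay just below the lowest Ctrl value, and for Kdm4a the groups overlapped. Their log2 fold changes were -0.12 for Kdm4a, -0.11 for Phf2 and -0.08 for Kdm3a, with adjusted p of 0.437, 0.441 and 0.549.

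The other autosomal demethylases had log2 fold changes between -0.10 and 0.00. Kdm6b, one of the enzymes that take off the Polycomb mark and open muscle genes, had 13.5, 12.8 and 10.5 RPKM in Psat1 cKO and 12.9, 12.6 and 12.99 RPKM in Ctrl, a log2 fold change of -0.07 (95% interval -0.28 to 0.14). Kdm2a and Kdm2b, which bind unmethylated CpG islands, both had log2 fold changes of -0.08. Jmjd1c and Kdm3b, relatives of Kdm3a, had -0.06 and -0.04, and Kdm4b and Kdm4c had -0.10 and -0.02. Kdm5a and Kdm5b, which remove the methyl mark of active promoters, had -0.01 and 0.00. Kdm4d, a germline relative of Kdm4a in mouse, stayed at or below 0.1002 RPKM in every library.

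The low values of this family lay mostly in 1 library. Psat1 cKO 3 was the lowest of the 6 libraries for 13 of the 15 tested JmjC demethylases, and for 24 of the 40 tested members. In that library all 15 demethylases lay below their Ctrl mean, with log2 differences between -0.28 (Kdm6b) and -0.09 (Kdm5a) and a median of -0.18, where 54.1% of all genes tested lay below theirs and the median was -0.02. The same median was 0.04 in Psat1 cKO 1 and -0.03 in Psat1 cKO 2. Without Psat1 cKO 3 the median log2 fold change of the demethylases was 0.02, with 8 above 0 and 7 below, and that of all tested members was -0.02, with 18 above and 22 below. The sum over the family was 188, 178 and 159 RPKM in Psat1 cKO and 183, 183 and 177 RPKM in Ctrl. The 15 include the X-linked Kdm5c and Kdm6a, described below, which were lower in every library with Y-linked expression, Psat1 cKO 3 among them. Both had log2 fold changes above 0, which fell below 0 once this difference between libraries was in the fit.

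The JmjC demethylases have long transcripts, and length moved with the values of Psat1 cKO 3. The median transcript length was 6359 bases for the tested demethylases and 4559 bases for all tested members, where that of all genes tested was 3360 bases. Psat1 cKO 3 was the lowest library for 20.1% of the genes with lengths up to 2147 bases, for 30.5% of those up to 3360, for 34.7% of those up to 4797 and for 39.6% of those above, bins of about equal size. Of the members in the same bins, 2 of 6, 1 of 6, 8 of 11 and 13 of 17 were at their lowest there. In the bin of the longest transcripts the log2 difference between Psat1 cKO 3 and the Ctrl mean had a median of -0.15 for the members and -0.05 for all genes. The histone lysine methyltransferases, which write the marks that the demethylases remove, were lowest in Psat1 cKO 3 for 6 of 19 genes. The summed myoblast markers were 1649 RPKM in Psat1 cKO 3 and between 1918 and 2345 RPKM in the other libraries, and the summed endothelial markers were 11.4 RPKM there and between 2.45 and 4.82 RPKM in the others. The part of length, depth or cell types in these values was not tested.

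**Figure D3:**
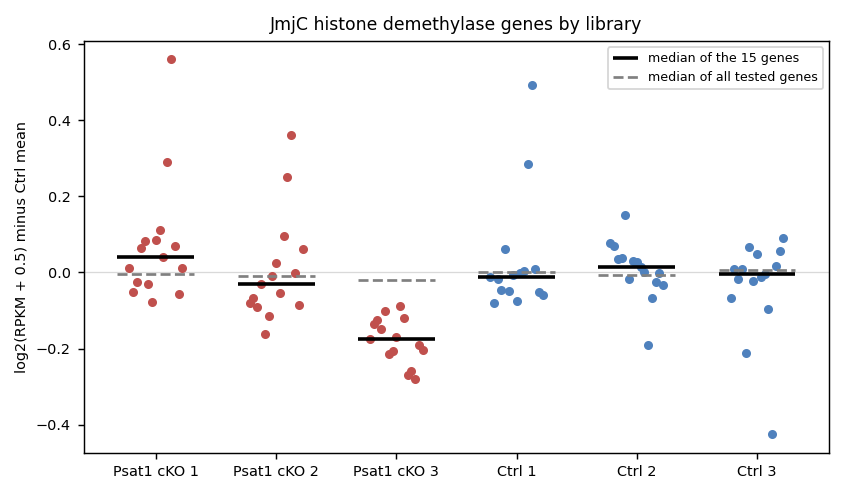
Log2 difference of each tested JmjC demethylase from its Ctrl mean in each of the 6 libraries, with Psat1 cKO libraries on the left and Ctrl libraries on the right. Solid lines mark the median of the 15 genes and dashed lines that of all genes tested. All 15 genes lie below 0 in Psat1 cKO 3, while in the other 5 libraries the genes lie on both sides of 0.

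Of the members 3 are X-linked: Kdm5c (GRCm38 chromosome X, 152233198 to 152279102), Kdm6a (chromosome X, 18160862 to 18279936) and Phf8 (chromosome X, 151520641 to 151633859). Kdm6a, which removes the Polycomb mark, had 8.59, 7.43 and 4.66 RPKM in Psat1 cKO and 8.18, 5.39 and 4.10 RPKM in Ctrl. Kdm5c, which removes the mark of active promoters, had 13.9, 13.5 and 9.27 RPKM in Psat1 cKO and 13.9, 9.82 and 10.5 RPKM in Ctrl. For both genes the 3 high values were those of the libraries with Xist, in either group, and the 3 low values those of the libraries with Y-linked expression. Phf8, with a plant homeodomain finger like Phf2, had 2.63, 2.74 and 2.20 RPKM in Psat1 cKO and 2.48, 2.54 and 2.81 RPKM in Ctrl, a log2 fold change of -0.04. Both genes are known to escape X inactivation in mouse.

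In a limma fit with genotype and this split as terms, Kdm5c averaged 13.8 ± 0.216 RPKM in the 3 libraries with Xist and 9.87 ± 0.625 RPKM in the 3 with Y-linked expression (SD), a log2 difference of 0.48 with a standard error of 0.06. Kdm6a averaged 8.07 ± 0.589 RPKM in the libraries with Xist and 4.71 ± 0.648 RPKM in those with Y-linked expression, a log2 difference of 0.73 with a standard error of 0.11. Neither passed the threshold over all 12251 genes (adjusted p of 0.130 and 0.342), where the split called 8 genes, or 0.0653%: 4 on Y, 3 on X and 1 elsewhere. Among these 8 are Xist and the Y-linked gene Ddx3y, whose levels define the split, so their calls were fixed in advance. Of the 411 X-linked genes tested, Kdm6a had the fourth largest and Kdm5c the twelfth largest difference, and the median was 0.02. The difference of Phf8 by the split was 0.08 (95% interval -0.17 to 0.32). At an unadjusted p under 0.05 the split separated 4 members, Kdm5c, Kdm6a, Tet2 and Plod2, beside 4.21% of all genes tested.

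The split was not balanced between the groups, so the genotype effect of these genes was also estimated with it in the fit. For Kdm6a the log2 fold change in Psat1 cKO was 0.22 (95% interval -0.40 to 0.84) without the split and -0.02 (-0.29 to 0.24) with it. For Kdm5c it was 0.09 (-0.31 to 0.49) without the split and -0.07 (-0.22 to 0.08) with it. The interaction of genotype and split rests on 1 library in 2 of its 4 arms, Psat1 cKO 3 for Psat1 cKO with Y-linked expression and Ctrl 1 for Ctrl with Xist, each assumed to vary like the other libraries. It was called by limma for 0 of 40 members and 0.00816% of all genes, with 6 members and 7.44% of all genes at an unadjusted p under 0.05. Since Psat1 cKO 3 stands apart, the interaction cannot be told apart from that library.

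The Y-linked partners of these genes are Kdm5d and Uty. Kdm5d was measured at 4.65, 4.59 and 4.73 RPKM in Psat1 cKO 3, Ctrl 2 and Ctrl 3, and at no more than 0.00517 RPKM in the other libraries. Uty, whose protein has little demethylase activity, was measured at 5.33, 4.70 and 4.20 RPKM in the same libraries and at no more than 0.0113 RPKM in the others. Kdm5c and Kdm5d summed to 13.9, 13.5 and 13.9 RPKM in Psat1 cKO and to 13.9, 14.4 and 15.2 RPKM in Ctrl. Kdm6a and Uty summed to 8.60, 7.44 and 9.99 RPKM in Psat1 cKO and to 8.19, 10.1 and 8.30 RPKM in Ctrl. The sums of the X-linked and Y-linked copies thus varied less between libraries than Kdm5c or Kdm6a alone. Reads from near-identical stretches of the paired genes could not be told apart.

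**Figure D4:**
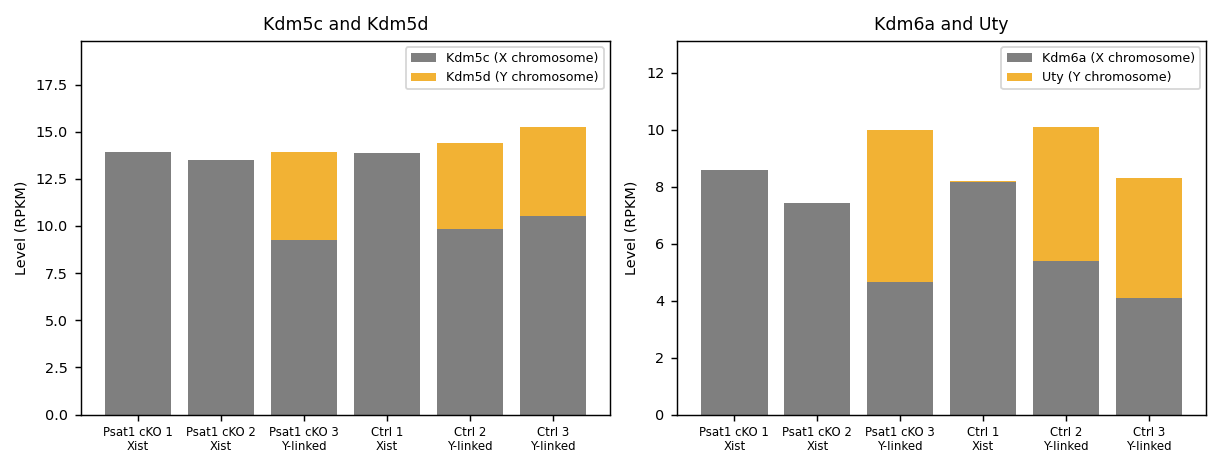
RPKM of Kdm5c with Kdm5d and of Kdm6a with Uty in each library, stacked, with Psat1 cKO libraries left of Ctrl libraries. The Y-linked copy is near 0 in all libraries except Psat1 cKO 3, Ctrl 2 and Ctrl 3, and Kdm5c and Kdm6a are lowest in the same libraries.

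The 4 JmjC proteins outside the histone demethylases were Jmjd6, Jmjd4, Jmjd8 and Kdm8. Jmjd6, which hydroxylates lysines of splicing factors, was the most abundant, at 26.6, 26.3 and 28.2 RPKM in Psat1 cKO and 28.1, 26.7 and 26.0 RPKM in Ctrl (log2 fold change 0.01, 95% interval -0.11 to 0.13). Jmjd4, which hydroxylates a translation termination factor, had 5.61, 5.62 and 5.38 RPKM in Psat1 cKO and 6.12, 5.75 and 6.14 RPKM in Ctrl. Its groups did not overlap, and its log2 fold change was -0.11, with 0.459 as the adjusted p. Jmjd8, a protein of the endoplasmic reticulum, had 6.74, 7.40 and 5.49 RPKM in Psat1 cKO and 7.24, 7.63 and 7.15 RPKM in Ctrl, with the lowest value again in Psat1 cKO 3. Kdm8 had a log2 fold change of -0.04.

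The AlkB family held both ends of the range. Alkbh2 (chromosome 5, 114123926 to 114131233), a repair enzyme for alkylated bases in double-stranded DNA, had 5.64, 6.22 and 5.87 RPKM in Psat1 cKO and 4.41, 4.07 and 5.51 RPKM in Ctrl. Every Psat1 cKO library lay above every Ctrl library, although Ctrl 3 lay close. The means were 5.91 ± 0.295 RPKM in Psat1 cKO and 4.66 ± 0.757 RPKM in Ctrl (SD, n = 3 each), with a log2 fold change of 0.32 (standard error 0.10, limma adjusted p = 0.208). Alkbh3 (chromosome 2, 93980624 to 94010824), which acts on alkylated single-stranded DNA and on RNA, had 13.2, 12.6 and 12.2 RPKM in Psat1 cKO and 14.4, 14.2 and 14.8 RPKM in Ctrl. Here every Psat1 cKO library lay below every Ctrl library. The means were 12.6 ± 0.489 RPKM in Psat1 cKO and 14.5 ± 0.334 RPKM in Ctrl, with a log2 fold change of -0.19 and a standard error of 0.05. Its limma adjusted p of 0.130 was the lowest of all members.

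Fto and Alkbh5 remove methyl groups from adenosine in messenger RNA. Alkbh5 had 21.4, 20.4 and 19.7 RPKM in Psat1 cKO and 22.4, 22.03 and 21.6 RPKM in Ctrl, with no overlap. Fto had 22.2, 23.2 and 19.7 RPKM in Psat1 cKO and 22.2, 23.6 and 24.5 RPKM in Ctrl, where Psat1 cKO 3 was the lowest. Their log2 fold changes were -0.10 (95% interval -0.22 to 0.01, adjusted p = 0.418) for Alkbh5 and -0.11 (-0.27 to 0.05, adjusted p = 0.539) for Fto. Alkbh5 over Fto was 0.947 ± 0.0629 in Psat1 cKO and 0.940 ± 0.0639 in Ctrl. Of 12 tested genes for proteins that write or read this mark 0 were called and 0 had an unadjusted p under 0.05 (limma, median log2 fold change -0.05).

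Alkbh8, which modifies wobble uridines of transfer RNA, had 7.92, 6.93 and 8.61 RPKM in Psat1 cKO and 7.66, 6.65 and 6.56 RPKM in Ctrl (log2 fold change 0.16, adjusted p = 0.4995). Alkbh1, which acts on transfer RNA and DNA, had a log2 fold change of -0.12. Alkbh6 had 0.13, the mitochondrial protein gene Alkbh7 had -0.02 and Alkbh4 had 0.00. Over the 9 AlkB genes the median was -0.02.

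HIF prolyl hydroxylases mark the alpha subunits of HIF for destruction when oxygen is present, and 0 of the 3 were called. Egln2 had 28.9, 28.6 and 29.4 RPKM in Psat1 cKO and 28.6, 29.2 and 29.1 RPKM in Ctrl. Its interval was the narrowest of all members, a log2 fold change of 0.00 between -0.10 and 0.10. Egln1, the main oxygen sensor of most cells, had 19.7, 18.7 and 19.5 RPKM in Psat1 cKO and 20.2, 19.0 and 18.6 RPKM in Ctrl, a log2 fold change of 0.00 between -0.11 and 0.12. Egln3 varied most, at 31.9, 44.4 and 40.3 RPKM in Psat1 cKO and 38.8, 42.9 and 42.2 RPKM in Ctrl, with the lowest and the highest value both in Psat1 cKO (log2 fold change -0.10 between -0.36 and 0.16). The HIF pathway and its targets gave 0 calls among 20 tested genes, with 1 higher and 2 lower at an unadjusted p under 0.05 and a median of -0.01. Those 3 were Adm (log2 fold change 0.58, adjusted p = 0.157), Bnip3 (-0.20, adjusted p = 0.165) and Pdk1 (-0.29, adjusted p = 0.313). Adm, for the peptide adrenomedullin, passed the threshold with the split in the fit (0.71, adjusted p = 0.0379), the only gene of the related lists to gain a call there, while Psat1, Gadd45a, Col1a2 and Col6a3 lost theirs.

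The collagen hydroxylases were the families with the highest median log2 fold changes, 0.05 for the P4ha genes and 0.08 for the Plod genes, and 0 of their 6 members passed the adjusted threshold. These medians rested on Psat1 cKO 2: without it they were -0.03 for the P4ha genes and -0.01 for the Plod genes, below the 0.01 of the HIF prolyl hydroxylases. The P4ha genes encode the catalytic subunits of collagen prolyl hydroxylase, which stabilises the triple helix. P4ha1, the main subunit, had 16.9, 19.7 and 16.2 RPKM in Psat1 cKO and 16.9, 16.4 and 17.4 RPKM in Ctrl. P4ha2 had 7.40, 9.20 and 8.02 RPKM in Psat1 cKO and 8.64, 7.95 and 7.86 RPKM in Ctrl. Both overlapped between groups, with log2 fold changes of 0.05 (95% interval -0.12 to 0.23) and 0.01 (-0.19 to 0.20). P4ha3 (chromosome 7, 100285489 to 100319701), the low-abundance subunit, had 1.51, 2.06 and 1.99 RPKM in Psat1 cKO and 1.32, 1.502 and 1.33 RPKM in Ctrl. Its groups were separated by less than 0.01 RPKM, with means of 1.85 ± 0.300 RPKM in Psat1 cKO and 1.39 ± 0.102 RPKM in Ctrl and a log2 fold change of 0.31 (standard error 0.11, limma adjusted p = 0.266).

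PLOD enzymes hydroxylate collagen lysines, which prepares the sites of cross-links and sugars. Plod2 (chromosome 9, 92539636 to 92608428), which acts on the telopeptides, had 28.7, 26.6 and 23.9 RPKM in Psat1 cKO and 23.9, 22.1 and 22.6 RPKM in Ctrl. Psat1 cKO 1 and 2 lay above all Ctrl libraries, and Psat1 cKO 3 met the highest of them. The means were 26.4 ± 2.41 RPKM in Psat1 cKO and 22.9 ± 0.972 RPKM in Ctrl, with a log2 fold change of 0.20 (standard error 0.07, limma adjusted p = 0.259). Plod3, which also adds sugars to hydroxylysine, had 20.1, 24.3 and 19.96 RPKM in Psat1 cKO and 19.9, 19.1 and 21.6 RPKM in Ctrl. Plod1, which acts on the helical part, had 10.1, 11.7 and 9.53 RPKM in Psat1 cKO and 10.6, 10.5 and 12.2 RPKM in Ctrl. Their log2 fold changes were 0.08 and -0.09, with adjusted p of 0.735 and 0.720.

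Ratios within a library do not depend on its scaling. Plod3 over Plod1 was 1.98, 2.08 and 2.095 in Psat1 cKO and 1.87, 1.81 and 1.78 in Ctrl. Plod2 over Plod1 was 2.83, 2.28 and 2.51 in Psat1 cKO and 2.25, 2.1 and 1.86 in Ctrl. For both ratios all Psat1 cKO values lay above all Ctrl values, which gives p = 0.1 in a two-sided exact permutation test, the smallest that 3 against 3 libraries allow. Over the 13 ratios within families that were computed, the adjusted p was 0.52 for both and no ratio had a lower one.

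**Figure D5:**
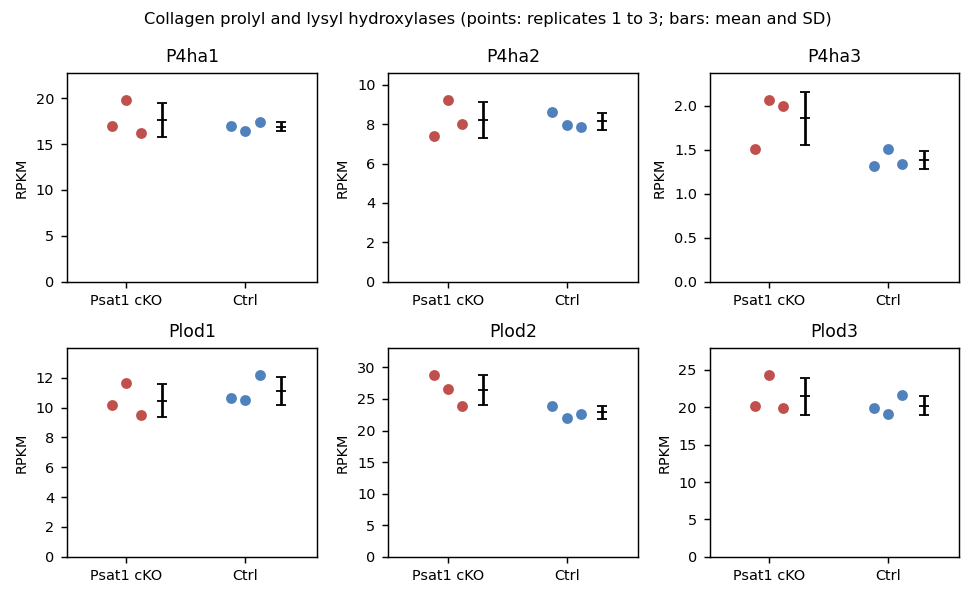
RPKM of the collagen prolyl hydroxylases and the lysyl hydroxylases in each library, with Psat1 cKO points left of Ctrl points and bars for the mean and SD of each group (n = 3). P4ha1 and P4ha2 overlap between groups, Plod2 lies higher in Psat1 cKO 1 and 2, and the 3 P4ha3 points of Psat1 cKO lie above those of Ctrl.

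Some of the collagen chains that these enzymes act on differed between groups to a larger extent. Of 14 tested collagen genes 3 rose in Psat1 cKO and 0 fell, with a median log2 fold change of 0.29 and 12 above 0. At an unadjusted p under 0.05, 8 were higher and 1 was lower, beside 14.4% of all genes tested in either direction. The sum over the 17 measured collagen genes overlapped between groups, at 347, 435 and 330 RPKM in Psat1 cKO and 312, 296 and 351 RPKM in Ctrl. Col16a1 had 2.79, 3.06 and 3.01 RPKM in Psat1 cKO and 1.58, 1.09 and 1.41 RPKM in Ctrl (log2 fold change 0.90, adjusted p = 0.0133). Col1a2, which encodes part of type I collagen, differed by 1.81 on the log2 scale (adjusted p = 0.0329), and Col6a3, of type VI collagen, by 0.95 (adjusted p = 0.0389). The number of calls dropped to 0 without Psat1 cKO 2 and to 1 without Psat1 cKO 3, Ctrl 1 or Ctrl 2, and Col16a1 was called in all fits that left out 1 library except the one without Psat1 cKO 2 (adjusted p = 0.0517). With the split in the fit Col16a1 kept its call (adjusted p = 0.0286), and Col1a2 and Col6a3 did not (adjusted p of 0.0714 and 0.0812). Of 10 tested partners of collagen hydroxylation in the endoplasmic reticulum 0 were called (limma, 2 with an unadjusted p under 0.05, median 0.06). These include P4hb, the shared beta subunit of collagen prolyl hydroxylase, at 132, 150.0 and 129 RPKM in Psat1 cKO and 129, 128 and 135 RPKM in Ctrl.

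Some markers of fibroblasts and fibro-adipogenic cells rose, as some collagen genes did. This marker list shares Col3a1 and Col15a1 with the list of collagen chains, so the lists are not independent, although none of the called markers is shared. Of this list of 15 markers 9 were tested, 4 rose (Pdgfra, Cd34, Smoc2 and Mfap5) and 0 fell, and the summed level lay between 118 and 131 RPKM in Psat1 cKO and between 96.0 and 102 RPKM in Ctrl. Lum, Dpt and Pi16, which define fibroblast subsets, were at most 0.123, 0.0299 and 0.0126 RPKM in any library. Of the 6 tested smooth muscle or pericyte markers 2 rose (Mcam and Tagln), with a summed level between 279 and 367 RPKM in Psat1 cKO and between 174 and 321 RPKM in Ctrl. Of the 9 myoblast markers 2 fell (Pax7 and Myf5). Pax7 is itself the locus that carries Cre in Psat1 cKO only, so its fall cannot be told apart from that change. Pdgfra and Pax7 kept their calls in all 6 fits that left out 1 library. The 4 fibroblast calls dropped to 3 without Psat1 cKO 1, Psat1 cKO 2 or Ctrl 1, to 2 without Psat1 cKO 3 or Ctrl 3, and to 1 without Ctrl 2 (Cd34 0.0523, Smoc2 0.0943 and Mfap5 0.169 as adjusted p). The 2 smooth muscle or pericyte calls dropped to 1 without Psat1 cKO 1, Psat1 cKO 3 or Ctrl 3, where Tagln was lost, and to 0 without Psat1 cKO 2. Myf5 lost its call without Psat1 cKO 2 (adjusted p = 0.0523) or Ctrl 2 (adjusted p = 0.0560). Of the endothelial, immune, adipocyte and Schwann cell markers 3 each were tested, and 0 passed by limma with 1 of each at an unadjusted p under 0.05. The part of other cell types in the values of P4ha3, Plod2 and the collagen genes was not tested.

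Asph encodes the aspartyl hydroxylase of epidermal growth factor-like domains, and the same locus encodes junctin and junctate of the muscle calcium store, which RPKM for the whole gene does not separate. It had 9.88, 9.84 and 9.39 RPKM in Psat1 cKO and 10.3, 10.8 and 9.81 RPKM in Ctrl (log2 fold change -0.08, 95% interval -0.21 to 0.05, adjusted p = 0.574).

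Among 18 other tested alpha-ketoglutarate dioxygenases outside the 42, 1 gene fell and 0 rose, with a median log2 fold change of -0.07. This was P3h2, a prolyl hydroxylase of collagen, at 1.64, 1.47 and 1.43 RPKM in Psat1 cKO and 2.38, 2.26 and 2.31 RPKM in Ctrl (log2 fold change -0.48, standard error 0.08, adjusted p = 0.0259). The groups were well separated, but the call was kept without Psat1 cKO 1 only (adjusted p = 0.0413), and in the fits without Psat1 cKO 2, Psat1 cKO 3, Ctrl 1, Ctrl 2 or Ctrl 3 the adjusted p was between 0.0689 and 0.104.

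The genes that supply the cosubstrate were described in the same way. Of 22 tested genes that make or use alpha-ketoglutarate 1 fell, Psat1 itself, and the others had 0 calls, with a median of -0.05 over the list. The Psat1 call was likewise kept without Psat1 cKO 1 only (adjusted p = 0.0425), and in the 5 other fits that left out 1 library the adjusted p was between 0.0517 and 0.0834. It was 0.0532 with the split in the fit. Of the 10 genes that remove succinate or fumarate, the inhibitors of these enzymes, 0 were called (limma, 1 with an unadjusted p under 0.05, median -0.03). That 1 gene was Sdha, for the flavoprotein of succinate dehydrogenase, at -0.13 on the log2 scale (adjusted p = 0.336).

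The genes of histone and DNA methylation gave few calls as well. Of 19 histone lysine methyltransferases 0 were called, 3 had an unadjusted p under 0.05 and the median was -0.02. Those 3 were Suv39h1, Ezh1 and Dot1l, with log2 fold changes of -0.20, -0.22 and -0.16 and adjusted p of 0.185, 0.266 and 0.283. The 7 tested genes of DNA methylation, some with a part in its removal, all had log2 fold changes below 0. Their median was -0.11, and 2 had an unadjusted p under 0.05. The 1 called gene was Gadd45a, which fell, a stress-induced gene with a proposed part in demethylation. It had 92.2, 95.6 and 83.3 RPKM in Psat1 cKO and 109.7, 121 and 113 RPKM in Ctrl (log2 fold change -0.34, adjusted p = 0.0452). That call was lost in each of the 6 fits that left out 1 library, with adjusted p between 0.0779 and 0.172, and also with the split in the fit (adjusted p = 0.0812).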

How the data were processed

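Poly(A) libraries were made from 500 ng of RNA, per the labels' protocols. The authors deposited RPKM values for 25220 genes in 6 libraries, and a comparison of the groups with p-values, q-values, a ratio, a signed fold change score and group means on the log2 scale, per the file headers. Partek, TopHat2 2.1.1, Trim Galore 0.6.6 and the build mm10 are named, per the submitters' processing notes. What each did, and the annotation used, is not given in the sources used here. Deposited lists of enriched terms were not used.

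Depth was estimated from single-exon genes of known length (GENCODE M21): between 41.2% and 47.6% of values of up to 20 reads were within 1% of whole reads, against 8.01% to 9.44% at other depths. Since most values were not whole, no count test was run. No 2 libraries were copies of each other. Samples were grouped by their titles.

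Genes averaging 0.5 RPKM or more over the 6 libraries were fitted in R 4.3.3 with the functions lmFit and eBayes of limma 3.58.1, with a variance trend, on log2(RPKM + 0.5), which understates changes of low genes. Genotype was the only term, and the adjustment was over all 12251 genes tested. The test was checked on simulated data. The split by Xist and Y-linked expression was a term of a further fit. Ratios within families were tested by exact permutation. The members and gene lists were chosen with earlier results of these data known, so lists are described by counts and medians with no list test. All members are given. Of each other list the called genes are named, or else up to 3 with the smallest p. Alternatives were pseudocounts of 0.1, 1 and 0.001, no filter, a filter at 2 RPKM, scaling by trimmed means, quantile normalization, no variance trend, array weights, the replicate number as a block, the split as a term and each library left out. The interaction with the split was chosen after seeing the data. Positions, lengths and promoters come from RefSeq and GENCODE for GRCm38, the assembly that mm10 names. Tables were handled with Python 3.11.15, pandas 2.3.3, numpy 2.4.6 and scipy 1.17.1, and plots drawn with matplotlib 3.10.9.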

Additional observations from a re-analysis of the deposited data

How the results depend on the processing

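Under all 17 alternatives 0 members were called in either direction, and the lowest adjusted p of any member was 0.0557 (Alkbh2, without Ctrl 3). The median log2 fold change of the members lay between -0.07 and -0.02 when 1 library was left out. Of 678 member values under the alternatives 48 changed sign, in 21 members, none of them called, the largest 0.07 in size. Calls over all genes were less stable: leaving out 1 library gave between 49 and 173 higher genes and between 12 and 55 lower genes, and without the filter on low values there were 1 higher and 3 lower. Same-numbered libraries of the groups had correlations of 0.20, -0.03 and 0.17 in their deviations. The pairs 1 and 3 exceeded the threshold of 0.1 and pair 2 did not, and Psat1 cKO 2 correlated best with Ctrl 1 (0.07), so the numbers were not taken as pairs. With the replicate number as a block, 0 members, 200 higher and 121 lower genes were called, and the log2 difference of Kdm6a by the split was 0.31, against 0.73 without the block, that of Kdm5c 0.52 and that of Phf8 0.21. Of the same-numbered libraries only Psat1 cKO 2 and Ctrl 2 differ in the split. With the block, its difference thus rests on how that pair differs from pairs 1 and 3, and cannot be told apart from that pair. The log2 difference of Kdm5c between libraries with Xist and those with Y-linked expression lay between 0.43 and 0.54 with 1 library left out, that of Kdm6a between 0.65 and 0.80 and that of Phf8 between -0.09 and 0.24. The cause of these shifts was not tested. With 3 libraries a group, differences of members anywhere within the intervals given remain possible, and the depth of Psat1 cKO 3 limits the low genes most.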
